A study of Sus scrofa with 35 samples.

Results

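The pyruvate dehydrogenase kinases PDK1, PDK2, PDK3 and PDK4 were described in pig longissimus dorsi, a back muscle, together with ANGPTL4, UCP2, UCP3 and CPT1B, which handle fatty acids and mitochondrial fuel. Their probes were chosen by name: every non-control probe whose gene name in the scanner files is 1 of these 8 symbols, which gave 33 probes among 60305, for 8 of the 11407 genes with a symbol. The set was put forward with the heat stress difference of PDK4 and ANGPTL4 already known, so for all 8 genes the difference between temperatures is given as a description and supports nothing. Whether breed values or the variation among pigs were also in view when the set was formed is not recorded, so the tests on them below are not called independent evidence.

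The pigs were castrated males, either purebred Creole, purebred Large White, or F1 pigs from a cross of both breeds. They were kept at thermoneutrality (TN, 24 °C) or exposed to heat stress (HS). The labels give 30 °C for HS, whereas the growth protocol gives 32 °C for 5 days, and this disagreement is left as it stands. Each of 35 single-colour Agilent arrays carried the muscle RNA of 1 pig. There were 6 pigs at each temperature for Creole and for Large White, whereas F1 had 6 pigs in TN and 5 in HS. According to the methods, slaughter of the TN pigs preceded the temperature rise and that of the HS pigs followed it, the pigs of both came from separate pens, and littermates were divided between them. The study also reports that the challenged pigs ate less per day in the heat than before it, and that slaughter followed no fasting period. Day, age, pen, feed intake and temperature therefore cannot be told apart, and p-values treat related pigs as independent.

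Pyruvate dehydrogenase turns pyruvate into acetyl-CoA and so commits glucose carbon to oxidation. The PDK enzymes phosphorylate it and switch it off. PDK4 is the isoform known to rise in muscle during fasting, when fatty acids replace glucose as fuel. ANGPTL4 is a secreted inhibitor of lipoprotein lipase, CPT1B loads long-chain fatty acids onto carnitine for entry into mitochondria, and UCP3 and UCP2 are carriers of the mitochondrial inner membrane. Several of these genes are targets of the PPAR nuclear receptors, which sense fatty acids.

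Values are log2 of the median pixel intensity after quantile normalisation between arrays. A probe's level depends on its sequence, so levels were compared between arrays and never between probes. A probe entered the fit when the scanner marked it well above background in 75% or more of the pigs of any group, which kept 32 of the 33 member probes and 41517 probes in all. The exception was a PDK1 probe (O12681), well above background on 5 of 35 arrays. Each gene is represented by its brightest kept probe, called the main probe, and its other probes are given beside it. The muscle markers ACTA1 and CKM were well above background on all 35 arrays. Array brightness, the 75th percentile of log2 intensity, was 9.05 ± 0.17 in the 18 TN pigs and 9.24 ± 0.24 (SD) in the 17 HS pigs. The mean of 9 leukocyte markers, of 10 listed, ranged from 7.19 to 9.16 on TN and from 8.11 to 9.42 on HS arrays. Of the 9, 3 (CSF1R, AIF1 and LYZ) were called higher in HS, with LYZ at 2.26. PTPRC (-0.02, limma adjusted p = 0.906) and MS4A1 (-0.05, limma adjusted p = 0.603) were lower and not called, the 2 such genes of this list. Of 7 connective tissue markers COL3A1, LUM and FN1 were called higher, and the mean of the 7 ranged from 11.89 to 13.59 on TN and from 13.03 to 13.80 on HS arrays. The fast fibre markers TNNI2 and ATP2A1 (of 7), MYH2 of the skeletal muscle list (of 7), the endothelial VWF (of 7) and the red blood cell marker HBB (of 3, at -1.21) were called lower in HS. For MYH2 and VWF this was the main probe alone, with 0 of 5 and 0 of 1 other probes called. SLC4A1 (0.37, limma adjusted p = 0.123) and TEK (0.10, limma adjusted p = 0.177) were higher and not called, each the 1 such gene of the red blood cell and endothelial lists. The part of these other cell types in the HS differences below was not tested, save that the leukocyte and adipocyte means were tried as covariates. In whole muscle, fewer cells of a type and less RNA per cell cannot be told apart.

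The probes of 1 gene were not all separate measurements, which the sequences printed on the array show. All are written 5′ to 3′ as in the scanner files. The 33 member probes held 31 distinct sequences. For ANGPTL4, 2 of the 4 probes overlapped, and capitals mark the 57 bases both contain:
A_72_P718758: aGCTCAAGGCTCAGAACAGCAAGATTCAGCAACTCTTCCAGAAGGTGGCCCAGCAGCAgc
A_72_P359633: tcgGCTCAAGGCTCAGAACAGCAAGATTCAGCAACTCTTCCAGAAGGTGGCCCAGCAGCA
Another ANGPTL4 probe has other letters and gives a reading apart from that pair:
A_72_P165341: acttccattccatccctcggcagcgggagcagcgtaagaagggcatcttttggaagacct
For PDK4, the main probe and its neighbour shared a run of 19 bases, in capitals, shown in a window of 30 bases of each:
A_72_P576424: CTAGTGGATGGAAACTGACtgttcaggccc
A_72_P561949: ggattCTAGTGGATGGAAACTGACgttcag
The 2 UCP2 probes shared 22 bases, again in capitals within 30 bases of each:
O6507: agcctggcATCAGCCAGGATCTCAAGTCCT
A_72_P165336: ATCAGCCAGGATCTCAAGTCCTccgtcctt

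Probes of different kinases could in principle pick up each other's transcript. A PDK1 and a PDK2 probe are shown as an example, picked by hand and not found by a search for the closest pair. A PDK1 and a PDK2 probe aligned without gaps over 56 bases, of which 33 (58.9%) were identical and are in capitals:
A_72_P471686 (PDK1): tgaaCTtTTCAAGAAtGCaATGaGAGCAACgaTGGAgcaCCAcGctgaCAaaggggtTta
A_72_P383353 (PDK2): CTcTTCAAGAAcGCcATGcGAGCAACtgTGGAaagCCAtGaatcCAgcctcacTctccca
The longest run that probes of any 2 of the 8 genes shared was 11 bases. For CPT1B, 1 sequence was printed under 2 probe names, A_72_P273299 and A_72_P562224:
A_72_P562224: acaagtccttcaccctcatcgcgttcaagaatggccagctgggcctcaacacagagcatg
The SD of the difference between these 2 readings over 35 arrays was 0.108 log2. The PDK4 main probe was also printed under 2 names, A_72_P576424 and O11548, and this pair gave 0.108 too, and 3 identical pairs with a probe that carries no gene name gave 0.0764 for CPT1B, 0.0825 for UCP2 and 0.106 for PDK1. These 5 values measure the error of a reading within an array and hold no variation from RNA extraction, labelling or the array.

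PDK4 was the most variable of the 8 genes, and its level spanned 7.54 log2 units, or 186-fold, over the 35 pigs. Its pooled SD within the 6 groups was 1.55 log2, larger than that of 99.9% of kept probes, whose median was 0.226. In Creole TN pigs the lowest, median and highest values were 10.25, 14.11 and 14.98. In Creole HS pigs they were 9.96, 11.76 and 14.10. The medians differed while the ranges overlapped, with 1 Creole TN pig close to the lowest HS value and the highest HS pig at the TN median.

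In F1 TN pigs PDK4 ranged from 12.21 over a median of 14.92 to 16.66, the highest value of the series. The 5 F1 HS pigs were at 9.12, 10.68, 11.55, 11.56 and 13.20. In Large White TN pigs the lowest, median and highest values were 10.84, 14.17 and 16.05, and in Large White HS pigs 11.68, 13.38 and 14.17. Ordered by mean, F1 TN (14.74) stood first, followed by Large White TN (14.03), Creole TN (13.57), Large White HS (13.24), Creole HS (11.97) and F1 HS (11.22). Each step between neighbours in that order was smaller than the within-group SD of 1.55. That SD is the spread of single pigs, and neighbouring means were not tested against each other.

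**Figure D1:**
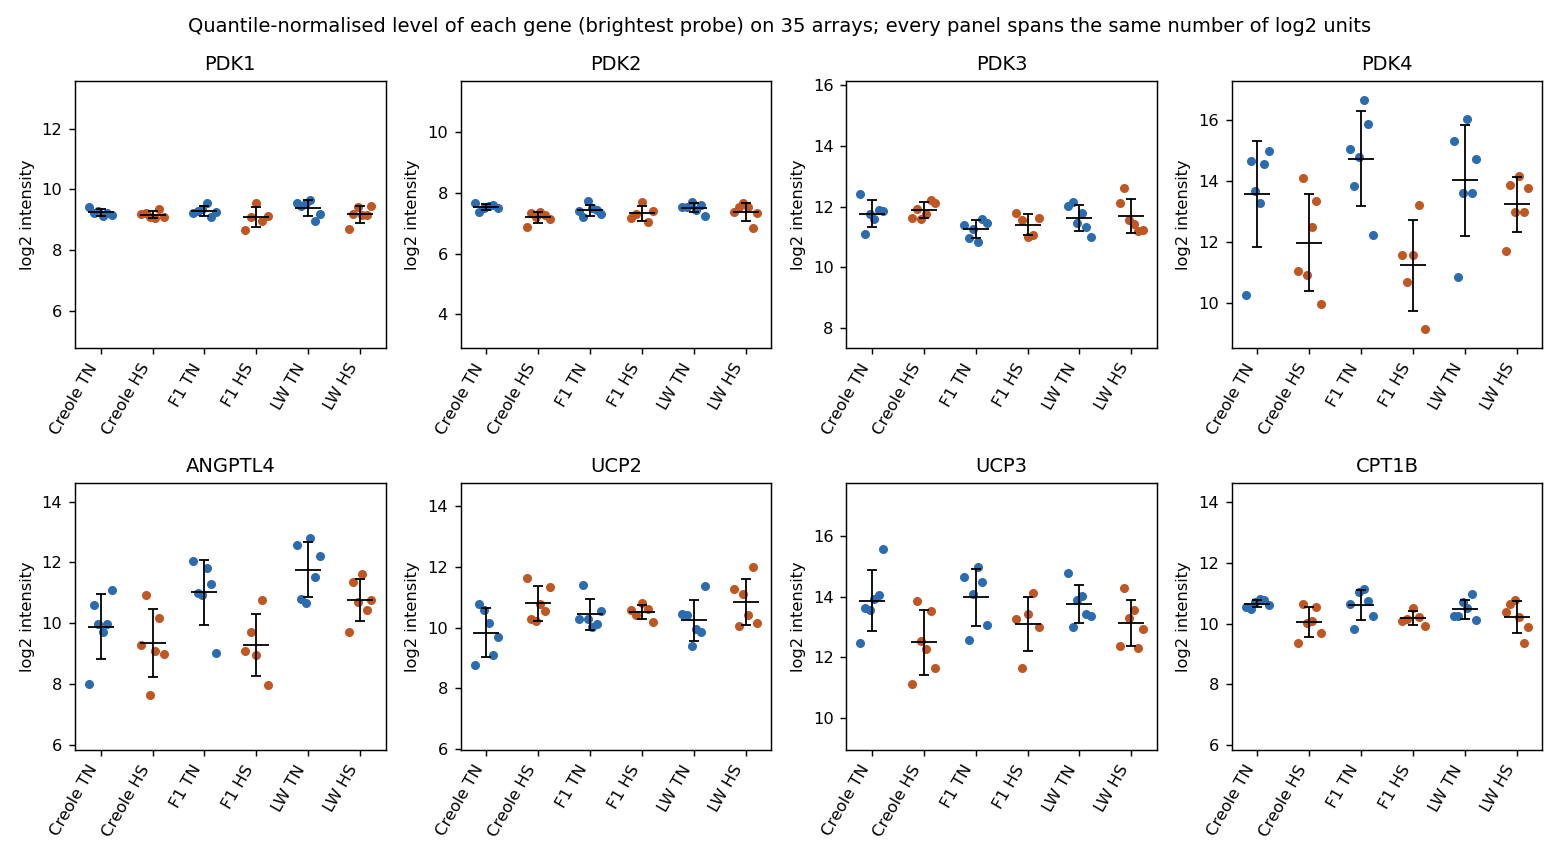
Level of each gene by its main probe on the 35 arrays (log2 intensity, vertical axis) in the 6 groups (LW, Large White; TN blue, HS orange). Points are pigs, the horizontal mark is the group mean and the bar is 1 SD; all panels span the same number of log2 units, so the wide scatter of PDK4 (SD 1.55) can be set against the narrow one of PDK2 (SD 0.20).

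With breed in the fit, PDK4 was 1.92 log2 lower in HS than in TN pigs (HS minus TN -1.92, SE 0.52), which is 3.78-fold, and 15 of 17 HS pigs lay below the TN mean of their breed. All 11 PDK4 probes gave a lower HS mean, with differences from -2.0 to -1.52, and their group-centred values correlated with each other with r between 0.947 and 0.998. The difference was -1.60 (SE 0.85) in Creole, -3.52 (SE 0.89) in F1 and -0.78 (SE 0.85) in Large White pigs. The breed by temperature interaction, tested by limma's F-test over all kept probes, did not pass for any PDK4 probe (unadjusted p from 0.0685 to 0.183, adjusted p = 0.963).

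PDK1, PDK2 and PDK3, the other isoforms, showed little of this. PDK1 lay between 8.67 and 9.64 on all 35 arrays, with a median of 9.27 in TN and 9.16 in HS. Its main probe differed by -0.16 (SE 0.07) and its second kept probe by -0.24 (SE 0.08), and 13 of 17 HS pigs lay below their breed's TN mean by the main probe. PDK2 lay between 6.83 and 7.73, with medians of 7.51 in TN and 7.34 in HS.

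The main PDK2 probe differed by -0.20 (SE 0.07) and the other by -0.04 (SE 0.06), and both correlated only weakly within groups (r = 0.272, a description). PDK3 had no clear direction. By 2 of its 3 probes, which correlated with r = 0.979, it was slightly higher in HS, while the mean of all its probes gave -0.016. By the main probe 9 of 17 HS pigs lay below and 8 above their breed's TN mean. PDK3 lay between 10.85 and 12.62, with medians of 11.53 in TN and 11.62 in HS. Its main probe differed by 0.11 (SE 0.13), a second by 0.09 (SE 0.13) and the third (A_72_P145371) by -0.25 (SE 0.14), the last correlating with the others at no more than 0.251. The strand of the O12681 and O11322 probes of PDK1 and PDK2 could not be checked without a transcript sequence, and neither probe bears on the values of the main probes.

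ANGPTL4 followed PDK4 in direction. In Creole pigs the lowest, median and highest values were 7.99, 9.97 and 11.10 in TN and 7.65, 9.18 and 10.94 in HS. In F1 pigs they were 9.01, 11.14 and 12.04 in TN, and the 5 HS pigs were at 7.98, 8.95, 9.07, 9.72 and 10.75. In Large White pigs they were 10.65, 11.88 and 12.80 in TN and 9.72, 10.73 and 11.63 in HS. The HS median was the lower one in each breed, and the TN and HS ranges overlapped in each.

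The main ANGPTL4 probe was 1.07 log2 lower in HS (HS minus TN -1.07, SE 0.32), or 2.10-fold, and 15 of 17 HS pigs lay below the TN mean of their breed. Its 4 probes gave -1.07 to -0.87. By breed the difference was -0.54 (SE 0.54) in Creole, -1.72 (SE 0.57) in F1 and -1.0 (SE 0.54) in Large White pigs. The interaction did not pass (limma F-test, unadjusted p from 0.271 to 0.372, adjusted p = 0.963).

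UCP3, the muscle uncoupling protein, also had a lower HS level. Over all breeds its lowest, median and highest values were 12.46, 13.91 and 15.56 in TN and 11.13, 13.01 and 14.29 in HS, which overlap. Its main probe differed by -0.96 (SE 0.28), or 1.94-fold, with 15 of 17 HS pigs below their breed's TN mean. A second probe gave -1.0 (SE 0.26), and its sequence is printed because it gave nearly the same value from another stretch of the transcript:
A_72_P443167: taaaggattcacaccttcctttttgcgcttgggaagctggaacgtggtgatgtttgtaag
The third probe (O7852), the dimmest at a mean of 6.85, gave -0.19 (SE 0.05) and followed the others within groups with r of only 0.429 and 0.478. Its interaction p was 0.0295 unadjusted and 0.963 adjusted.

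CPT1B, the muscle isoform of the carnitine palmitoyltransferase that gates fatty acid entry, was lower in HS by a smaller amount. Its lowest, median and highest values were 9.83, 10.62 and 11.13 in TN and 9.35, 10.14 and 10.78 in HS. The 5 probes gave -0.50 to -0.36, the main one -0.43 (SE 0.13), and 15 of 17 HS pigs lay below their breed's TN mean. The main probe reads this stretch, apart from the one printed above that 2 probes share:
A_72_P515198: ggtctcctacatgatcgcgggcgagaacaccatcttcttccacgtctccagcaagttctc

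UCP2, the relative of UCP3 that is also abundant in immune cells, was the member with a higher HS level by both probes. Its lowest, median and highest values were 8.76, 10.22 and 11.41 in TN and 10.05, 10.59 and 11.99 in HS. The main probe differed by 0.56 (SE 0.21), or 1.47-fold, and the other by 0.68 (SE 0.22), and 13 of 17 HS pigs lay above their breed's TN mean by the main probe. Within groups UCP2 rose and fell with the leukocyte marker mean (r = 0.892 over 35 arrays, a description). With that mean as a covariate the HS minus TN value of the main probe was -0.10 (SE 0.11). What part leukocytes had in the difference was not tested.

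In the fit over all 41517 probes, 25 of the 32 kept member probes were called lower in HS at an adjusted p of 0.05, and 8.3% of all probes were. The median difference of the 32 was -0.88, against -0.02 over all kept probes. The 25 were all 11 of PDK4, 4 of ANGPTL4, 3 of UCP3, 5 of CPT1B, 1 of PDK1 and 1 of PDK2. The single probe called higher was 1 of UCP2, against 7.73% of all probes. Since PDK4 and ANGPTL4 were known to fall when the set was formed, these counts are read no further. With array brightness as a covariate 14 member probes were called lower, 10 of PDK4 and 4 of ANGPTL4, and 1.83% of all probes. When the leukocyte mean took its place 5 were, 4 of ANGPTL4 and 1 of PDK4, and 2% of all probes. The estimates of PDK4 hardly moved under these covariates (-1.98, SE 0.58, and -1.89, SE 0.61), nor did those of ANGPTL4 (-1.16, SE 0.35, and -1.25, SE 0.37). Those of UCP3 became -0.70 (SE 0.30) and -0.54 (SE 0.31), and those of CPT1B -0.23 (SE 0.12) and -0.15 (SE 0.12). PDK2 moved from -0.20 to -0.07 (SE 0.05) and -0.05 (SE 0.06), and UCP2 from 0.56 to 0.30 (SE 0.21) with brightness.

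The 35 arrays lay on 5 slides, of which 4 held 4 TN and 4 HS arrays each and the fifth 2 and 1. With the breed effect removed, PDK4 differed by -2.65, -2.24, -2.53 and -3.33 on slides 1, 3, 4 and 5, and by 0.00045 on slide 2. The same slide gave -0.30 for ANGPTL4, 0.39 for UCP3 and 0.26 for CPT1B, where the other 4 slides gave -1.49 to -1.0, -1.86 to -1.10 and -0.96 to -0.41. UCP2 gave -0.13 on slide 2 and 0.39 to 1.1 on the others. PDK2 gave 0.08 on slide 2 and -0.50 to -0.07 on the others. PDK1 gave 0.04 on slide 2, 0.10 on slide 5 and -0.44 to -0.04 on the remaining slides. The pigs of slide 2 thus did not show the difference for PDK4, UCP3, CPT1B and UCP2, nor the small ones of PDK1 and PDK2. With slide as a block in the fit PDK4 was at -1.98 and ANGPTL4 at -1.07.

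**Figure D2:**
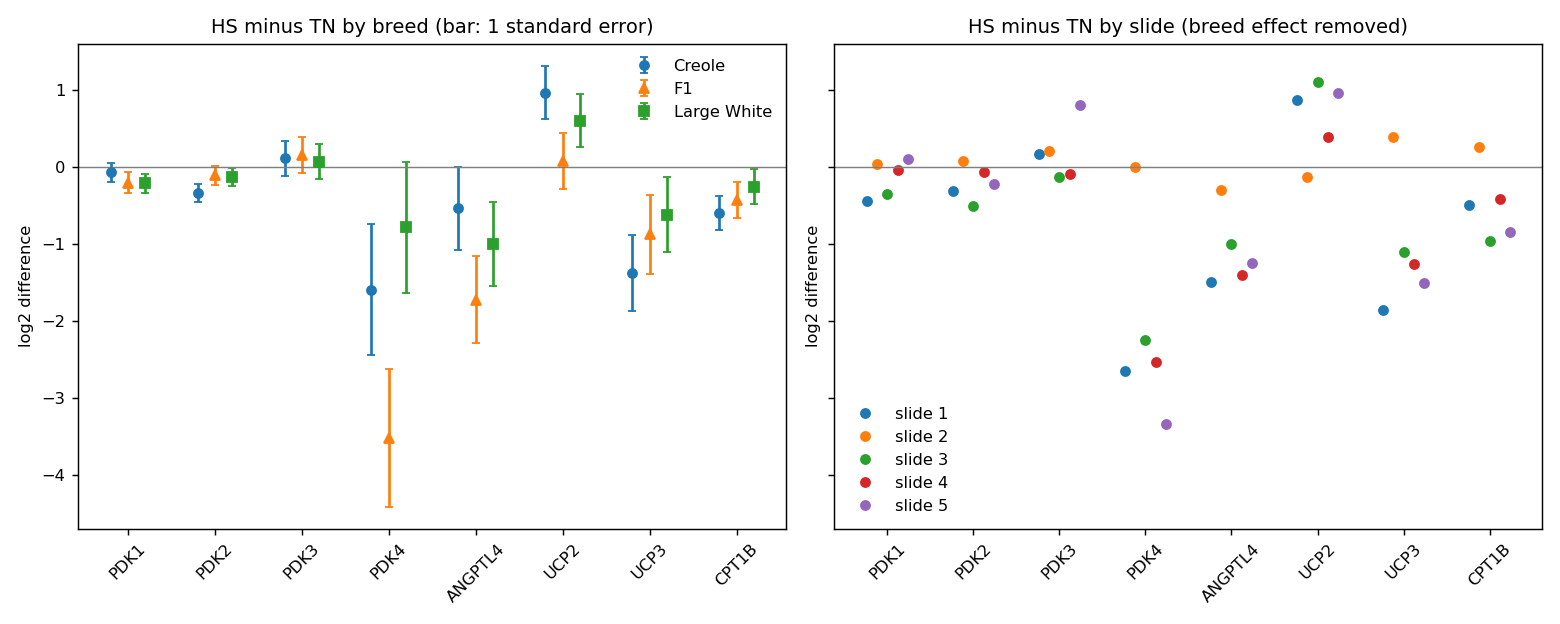
HS minus TN of the main probe of each gene (log2, vertical axis) within each breed, with bars of 1 standard error (left), and within each slide after removal of the breed effect (right). F1 pigs had the largest PDK4 difference (-3.52), and slide 2 (orange) lies at or above 0 for PDK1, PDK2, PDK3, PDK4, UCP3 and CPT1B.

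In the breed contrasts 1 of the 8 genes passed. ANGPTL4 was lower in Creole than in Large White pigs. Over both temperatures Creole pigs had a lowest, median and highest value of 7.65, 9.84 and 11.10, F1 pigs 7.98, 10.75 and 12.04, and Large White pigs 9.72, 11.07 and 12.80. Creole and Large White pigs overlapped, with the Creole median close to the lowest Large White value.

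The main ANGPTL4 probe was 3.12-fold lower in Creole than in Large White pigs (Creole minus Large White -1.64, SE 0.38, limma adjusted p = 0.0105). All 4 ANGPTL4 probes passed, with differences from -1.64 to -1.25 and adjusted p from 0.0104 to 0.0125, whereas 3.64% of all probes were called in this contrast. The difference was -1.87 (SE 0.54) in TN and -1.41 (SE 0.54) in HS pigs, neither of which passed alone (limma adjusted p = 0.086 and 0.458), a split chosen after seeing the data. Within the 5 slides it ran from -2.26 to -1.09. Adipocyte markers (5 measured of 6) averaged 10.41 ± 0.28 in the 12 Creole pigs against 10.59 ± 0.25 (SD) in the 12 Large White pigs, and with that mean as a covariate the difference was -1.74 (limma adjusted p = 0.00806). Other markers were lower in Creole pigs together with ANGPTL4. Of 7 endothelial markers KDR (-0.96, limma adjusted p = 0.000348), CLDN5 (-0.59, limma adjusted p = 0.0205) and PECAM1 (-0.40, limma adjusted p = 0.0275) passed, and the mean of the 7 ranged from 10.103 to 10.75 in Creole and from 10.48 to 11.28 in Large White pigs. Of 7 connective tissue markers COL3A1 (-0.43, limma adjusted p = 0.0189) and DCN (-0.28, limma adjusted p = 0.0314) passed, with the mean of the 7 between 11.89 and 13.55 in Creole and between 13.0 and 13.80 in Large White pigs. The part of endothelium and connective tissue in the ANGPTL4 difference was not tested. Each breed was represented by 3 blocks of littermates per the study methods, a kinship the fit does not hold.

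Over both temperatures F1 pigs lay between the parental breeds for ANGPTL4, and neither difference passed. F1 minus Large White was -1.08 (SE 0.39, unadjusted p = 0.00969, limma adjusted p = 0.263), and F1 minus Creole was 0.56 (SE 0.39, limma adjusted p = 0.784). Among HS pigs alone F1 was not intermediate, with a median of 9.07 against 9.18 in Creole and 10.73 in Large White pigs. Over all members, 0 of 32 probes were called in F1 against Large White (limma, 5 with an unadjusted p under 0.05, and 0.525% of all probes called) and 0 in F1 against Creole (limma, 2 with an unadjusted p under 0.05, and 0.477% of all probes called).

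For the other 7 genes no probe passed in Creole against Large White, with differences from -0.89 to 0.22 (smallest limma adjusted p = 0.464). PDK4 was at -0.87 (SE 0.63) there, so its spread leaves a breed difference of the size seen for ANGPTL4 within 2 standard errors. By its main probe PDK3 was lowest in F1 pigs, with a median of 11.40 against 11.82 in Creole and 11.51 in Large White pigs, and F1 minus Creole was -0.50 (SE 0.16, unadjusted p = 0.00317, limma adjusted p = 0.187). A second PDK3 probe gave -0.51 and the remaining one (A_72_P145371) 0.02 for F1 minus Creole. In the interaction test 0 of 32 member probes and 0 of 41517 probes (0%) were called (limma F-test; 2 and 1593 with an unadjusted p under 0.05).

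**Figure D3:**
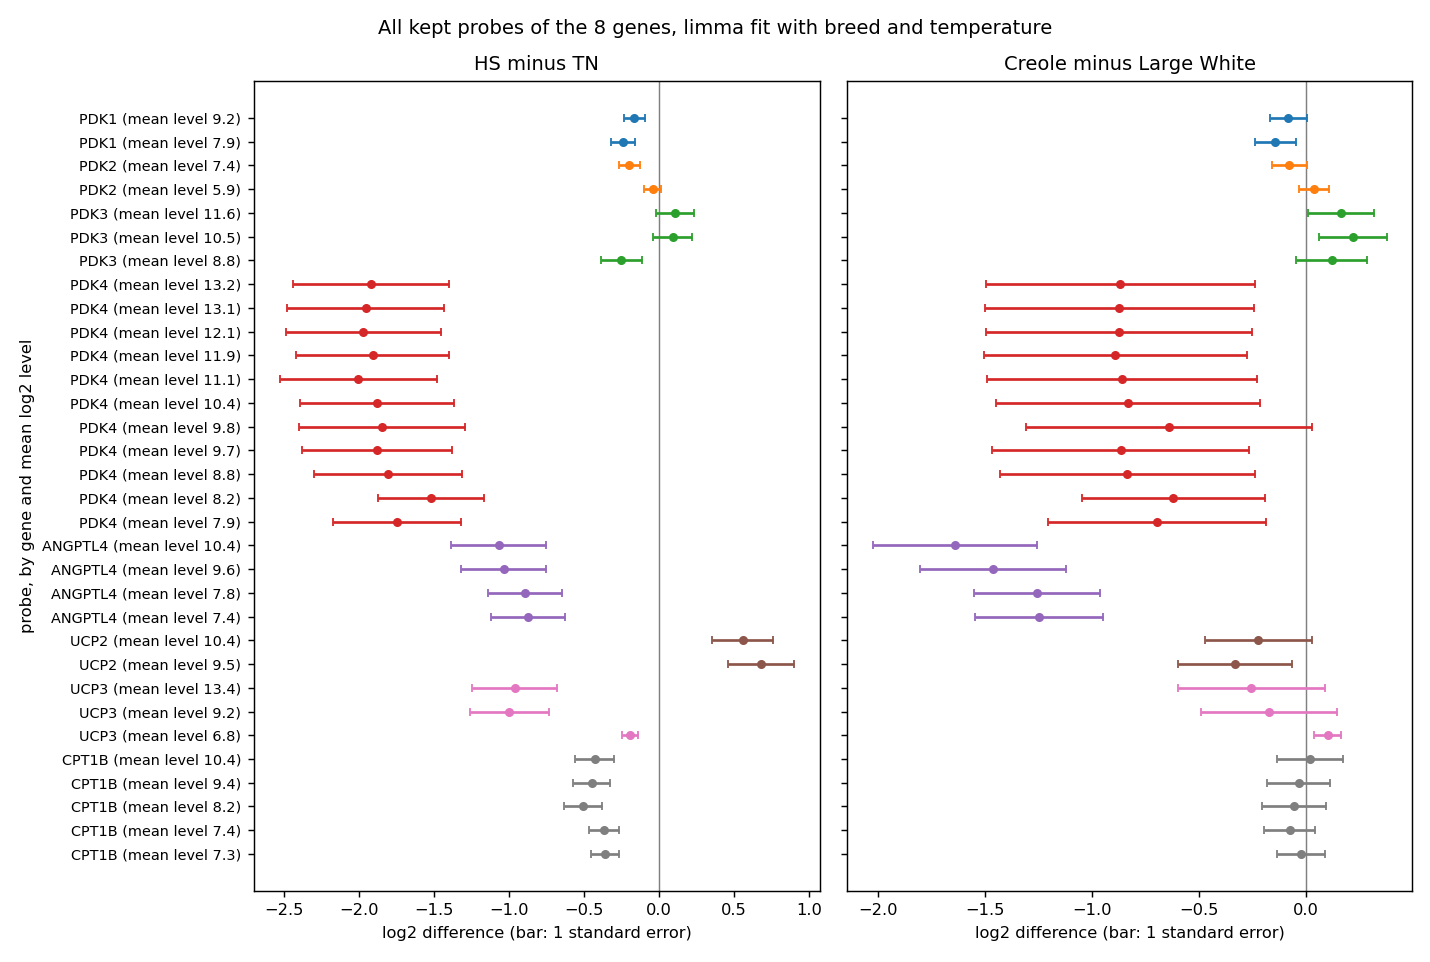
HS minus TN (left) and Creole minus Large White (right) in log2 for the 32 kept probes of the 8 genes, ordered by gene and mean level, with bars of 1 standard error. The 11 PDK4 probes lie between -2.0 and -1.52 on the left, and on the right the 4 ANGPTL4 probes lie between -1.64 and -1.25.

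Since PDK4 varied widely among pigs of 1 group, the question was which other members varied with it. Values were centred on the 6 group means, so that mean differences of breed and temperature did not enter. By the study methods, each group was held in more than 1 pen, and each temperature had more than 1 day of slaughter. The labels give neither, so shuffles within groups treat the pigs of 1 group as exchangeable. The part of pen, day and litter in the correlations was not tested. ANGPTL4 followed PDK4 most closely (Pearson r = 0.861, Spearman rho = 0.857, n = 35 arrays). UCP3 came next (r = 0.743, rho = 0.787). Both had a permutation p, two-sided with 100000 shuffles within groups, at or next to the smallest that the draws can give (1e-05 for ANGPTL4 and 2e-05 for UCP3 by Pearson), and an adjusted p of 7e-05 over the 7 pairs tested.

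Without the 2 pigs farthest from the PDK4 median, 1 Creole TN and 1 Large White TN pig, r was 0.849 for ANGPTL4 and 0.720 for UCP3. The relation held among TN pigs (r = 0.886 and 0.764, n = 18) and among HS pigs (r = 0.834 and 0.733, n = 17). Within slides 1 to 4, r with ANGPTL4 ran from 0.878 to 0.966 and with UCP3 from 0.681 to 0.779, and slide 5 held too few arrays. With slide means removed as well, it was 0.901 for ANGPTL4 and 0.727 for UCP3.

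CPT1B showed a weaker relation that did not pass (r = 0.382, permutation p = 0.0242, adjusted p = 0.0564; rho = 0.380, adjusted p = 0.0854), and within slides it ran from -0.07 to 0.66. PDK3 (r = -0.298, adjusted p = 0.161 by permutation), PDK1 (r = 0.113, adjusted p = 0.748), UCP2 (r = -0.085, adjusted p = 0.77) and PDK2 (r = 0.019, adjusted p = 0.911) did not pass either. Neither PDK1 nor PDK2 nor PDK3 was thus shown to vary with PDK4. PDK2 instead varied with array brightness (r = -0.742), with the leukocyte mean (r = -0.609) and with CPT1B (r = 0.763). CPT1B itself varied with brightness (r = -0.581) and with the leukocyte mean (r = -0.616). These values are given as a description.

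**Figure D4:**
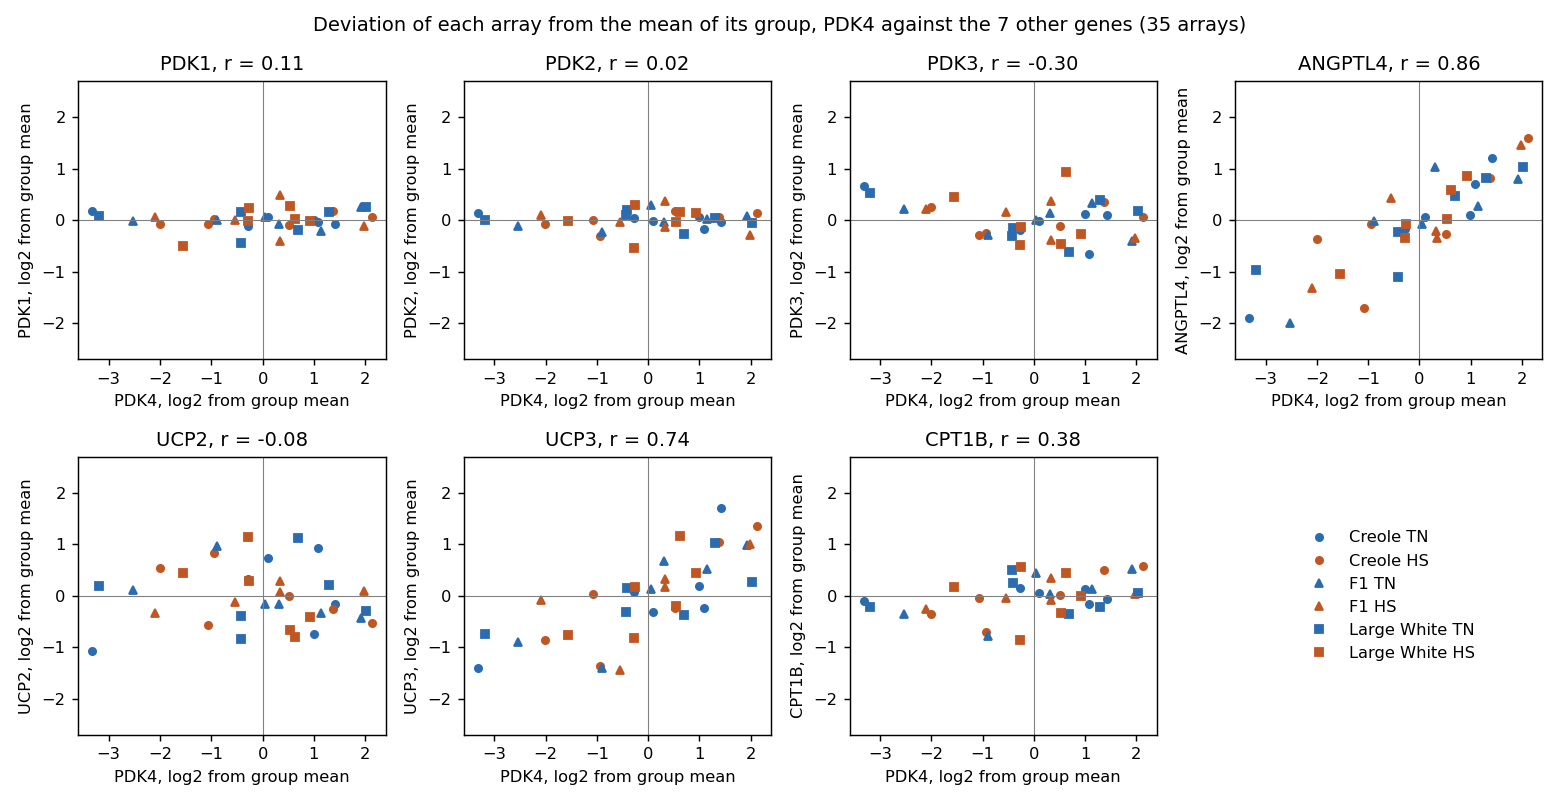
Deviation of each pig from the mean of its group in log2 for PDK4 (horizontal axis) and for each of the other 7 genes (vertical axis, same scale in all panels); circles are Creole, triangles F1 and squares Large White, TN blue and HS orange. ANGPTL4 (r = 0.86) and UCP3 (r = 0.74) rise along PDK4, and PDK1 (r = 0.11), PDK2 (r = 0.02) and UCP2 (r = -0.08) show no slope beyond the scatter.

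The pigs at the ends of this range show the pattern. The lowest PDK4 relative to its group was that of a Creole TN pig, at -3.32 log2 from its group mean, in which ANGPTL4 was at -1.90 and UCP3 at -1.41. A Large White TN pig with PDK4 at -3.19 had ANGPTL4 at -0.96 and UCP3 at -0.74, and an F1 TN pig with PDK4 at -2.53 had ANGPTL4 at -2.0 and UCP3 at -0.90. At the other end a Creole HS pig with PDK4 at 2.13 had ANGPTL4 at 1.59 and UCP3 at 1.36. A Large White TN pig with PDK4 at 2.02 had ANGPTL4 at 1.04 and UCP3 at only 0.27. An F1 HS pig with PDK4 at 1.98 had ANGPTL4 at 1.46 and UCP3 at 1.01. The 3 lowest deviations of PDK4 were all in TN pigs, and the 3 highest were in 2 HS pigs and 1 TN pig.

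Among 9532 genes with a symbol and complete values, the non-member main probe most like PDK4 over the 35 group-centred arrays was that of CPT1A (r = 0.848), the more widely expressed isoform of carnitine palmitoyltransferase. Next came SLC38A4, an amino acid transporter (r = 0.760), TXNIP, an inhibitor of glucose uptake (r = 0.735), MLYCD, the enzyme that breaks down malonyl-CoA, the inhibitor of CPT1 (r = 0.720), and ARHGEF12 (r = 0.714). ANGPTL4 lay above all of these genes and UCP3 below 2 of them, whereas 226 genes were more like PDK4 than CPT1B was. The lowest correlations were those of PDE6D (r = -0.666), BMI1 (r = -0.653) and MMAB (r = -0.653). The 3 genes most like ANGPTL4 were CPT1A (r = 0.815), MLYCD (r = 0.683) and ARID1A (r = 0.647). The genes were ranked by these values, which are thus no test.

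Where a gene had other probes they did not all give the pattern. All 4 CPT1A probes had r with PDK4 between 0.686 and 0.848, and the 11 TXNIP probes between 0.538 and 0.735. The second SLC38A4 probe was at 0.497, and the second ARID1A probe had r = 0.186 with ANGPTL4. MLYCD, ARHGEF12 and BMI1 had 1 probe each. These genes did not pass the temperature test. CPT1A differed between HS and TN by -0.20 (SE 0.21, limma adjusted p = 0.551), TXNIP by -0.20 (SE 0.13, limma adjusted p = 0.337), SLC38A4 by -0.50 (SE 0.19, limma adjusted p = 0.064) and MLYCD by -0.43 (SE 0.16, limma adjusted p = 0.0556).

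The genes around the members were taken from 7 lists, each gene by its main probe. A gene counted as called was not always called by its other probes. Of these, 0 of 4 were called for HADHA, 0 of 2 for ACACB, 0 of 1 for PDHB and 1 of 7 for LPIN1. For DLD 8 of 9 and for KLF9 10 of 10 were called. Over all 9551 genes with a main probe, 9.8% were called lower and 8.45% higher in HS, with a median difference of -0.02. Of the genes coding for the target of the PDK enzymes, its phosphatases and the pyruvate carriers, 5 of 8 measured were called lower and 0 higher, with a median of -0.23. DLD, the shared E3 subunit, was at -0.39 (SE 0.09, limma adjusted p = 0.00407) and MPC2, a subunit of the mitochondrial pyruvate carrier, at -0.30 (SE 0.09, limma adjusted p = 0.0162). PDHA1, the subunit that PDK enzymes phosphorylate, was at -0.20 (SE 0.14, limma adjusted p = 0.367) by its main probe, while 3 of its 4 other probes were called lower. PDP1, the phosphatase that reverses PDK action, was at 0.18 (SE 0.10, limma adjusted p = 0.22).

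Among fasting and PPAR target genes other than the members, 8 of 18 were called lower and 0 higher, with a median of -0.20. The fatty acid binding protein FABP3 was at -0.26 (SE 0.09, limma adjusted p = 0.0389) and SLC25A20, the carnitine-acylcarnitine carrier that follows CPT1, at -0.24 (SE 0.08, limma adjusted p = 0.0261). The fatty acid transporter CD36 was at -0.10 (SE 0.06, limma adjusted p = 0.255) and CPT2 at -0.17 (SE 0.08, limma adjusted p = 0.161). The ubiquitin ligases FBXO32 and TRIM63, which rise in muscle wasting and fasting, were at 0.09 (SE 0.17, limma adjusted p = 0.773) and 0.02 (SE 0.12, limma adjusted p = 0.927). Of their other probes, 1 of 4 for FBXO32 and 1 of 1 for TRIM63 had the opposite sign.

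Of nuclear receptors, coactivators and FOXO factors, which drive PDK4 and its relatives, 3 of 17 were called lower and 0 higher, with a median of -0.12. FOXO1, a known activator of PDK4, was at -0.26 (SE 0.08, limma adjusted p = 0.0261), and LPIN1 and ESRRA were the other 2. FOXO1 also counts among the 8 genes called in the fasting and PPAR list. PPARA was at -0.10 (SE 0.05, limma adjusted p = 0.209), PPARD at 0.18 (SE 0.10, limma adjusted p = 0.205), PPARGC1A at -0.30 (SE 0.13, limma adjusted p = 0.116) and KLF15 at -0.12 (SE 0.16, limma adjusted p = 0.663). The 2 other PPARD probes had the opposite sign. The glucocorticoid receptor NR3C1 was at -0.12 (SE 0.07, limma adjusted p = 0.231).

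Of 8 glucocorticoid target genes measured, PER1, ZBTB16 and KLF9 were called lower and 0 higher, with a median of -0.15. ZBTB16 was at -0.59 (SE 0.14, limma adjusted p = 0.00408), and FKBP5 at -0.06 (SE 0.15, limma adjusted p = 0.825). Of malonyl-CoA and AMPK genes 2 of 9 were called lower and 0 higher, among them ACACB, the muscle acetyl-CoA carboxylase that makes malonyl-CoA (-0.23, SE 0.06, limma adjusted p = 0.00799). The AMPK subunit PRKAA2 was at -0.08 (SE 0.06, limma adjusted p = 0.387). LPL, the enzyme that ANGPTL4 inhibits, was at 0.11 (SE 0.14, limma adjusted p = 0.641), and LMF1, its maturation factor, was the 1 of 2 measured genes of its list called lower. Of 8 glucose uptake genes TBC1D4 was called lower and 0 higher, with SLC2A4 at -0.29 (SE 0.14, limma adjusted p = 0.17) and HK2 at -0.02 (SE 0.19, limma adjusted p = 0.953). These calls depended on array brightness and on the leukocyte mean. With brightness as a covariate 1 of the 18 fasting and PPAR target genes and 0 of the 8 pyruvate dehydrogenase genes were called lower, against 2.33% of all genes. When the leukocyte mean took its place both counts were 0, against 2.68% of all genes. The part of brightness and of leukocytes in these calls was not tested.

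**Figure D5:**
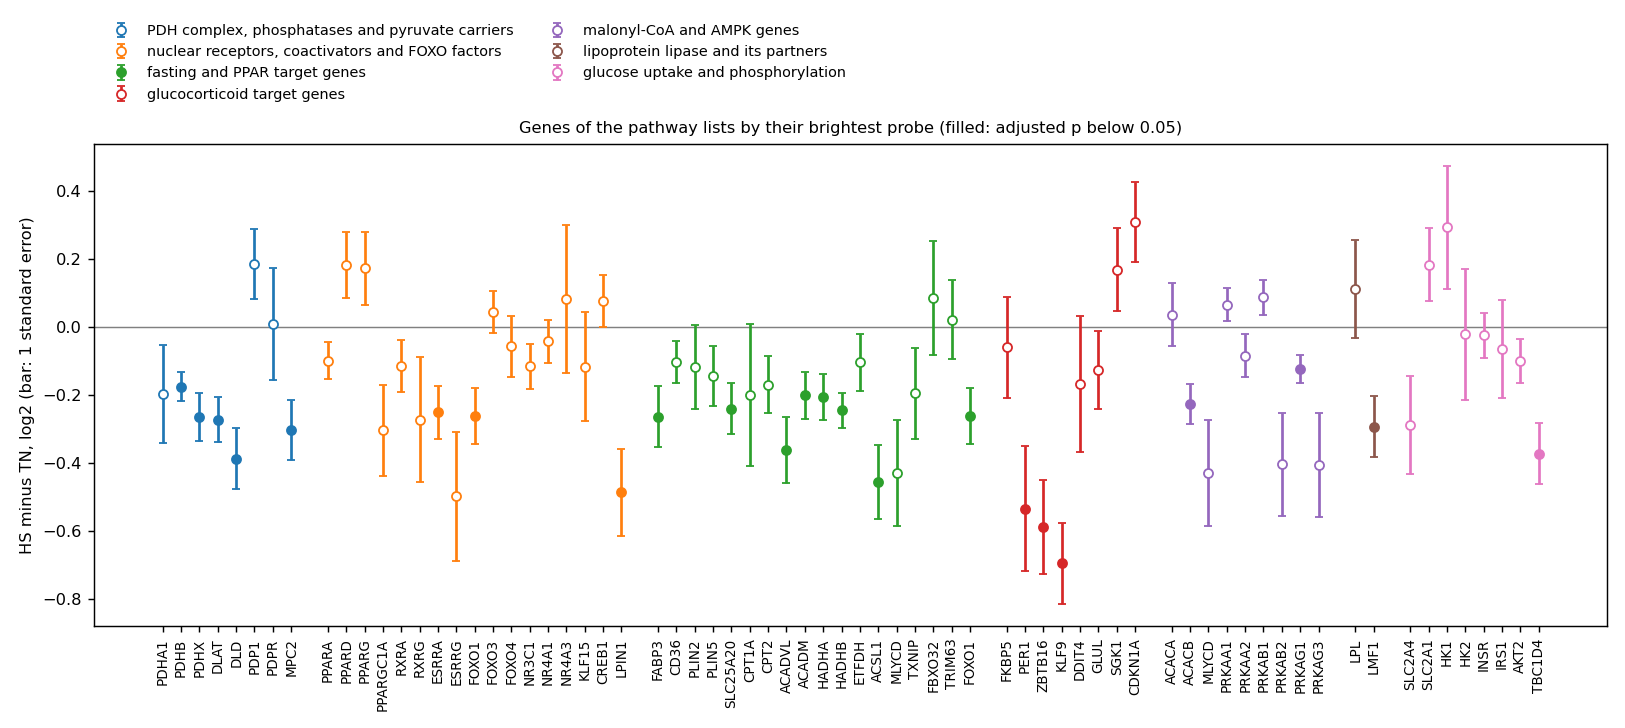
HS minus TN in log2 (vertical axis) of the measured genes of the 7 lists by their main probe, with bars of 1 standard error; filled symbols have an adjusted p below 0.05. All filled symbols lie below 0, with the genes of the pyruvate dehydrogenase list between -0.39 and 0.18.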

How the data were processed

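Cy3-labelled muscle RNA of 35 pigs was hybridised to 35 porcine arrays on 5 slides. Per the file headers, spot intensities were read by the authors with Agilent Feature Extraction 10.10.1.1, and the deposited median pixel intensity is neither background-subtracted nor normalised, while the deposited processed intensity is background-subtracted. The deposited value table holds log2 values that the authors quantile-normalised and restricted to probes expressed in muscle, and it served as an alternative. Quality flags per spot were deposited as well and were used to mark spots well above background and 105 outlier spots, which were left out.

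From these files the median intensities were quantile-normalised, log2-transformed and averaged over spots of 1 probe. Of 60305 non-control probes 41517 passed the background filter. The share of probes well above background was 58.4% to 75.9% per array, and no member spot was saturated. The number of arrays limits the precision. The limma package (3.58.1 in R 4.3.3) fitted breed and temperature additively, or 1 mean per group for values within breeds and the interaction, with Benjamini-Hochberg adjustment over all kept probes at 0.05. Pen, slaughter day and parents, random terms in the study's own model, could not be fitted because the labels do not hold them. Correlations used values centred on the 6 group means and 100000 two-sided permutations within groups. The scripts were tested on simulated data.

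The members and all gene lists were chosen with earlier results of these data known. Named genes were the members, a fixed set of genes from the lists by their brightest kept probe, the 5 genes with the highest and the 3 with the lowest correlation with PDK4, and the 3 highest with ANGPTL4. The breed difference of ANGPTL4 at each temperature was added after seeing the data. Members were taken by the gene names of the scanner files. Symbols of the other genes came from matching probe accessions to a reference gene list. Where that failed, the scanner file's gene name was matched to reference symbols. In this way 39.7% of probes received a symbol. 1 gene of the fasting list is not reported here and was left out of its counts. No genome was used, so no coordinates are given. Replicate numbers follow the order of deposition and pair no samples. Alternatives were other scalings, background correction, no filter, the deposited value table, slide, array weights, covariates, no breed term, the mean of all probes and leaving out each array.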

Additional observations from a re-analysis of the deposited data

Results flagged for a closer look

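In 2 of the 48 groups of arrays tested, 6 groups for each of 8 genes, 1 pig stood apart from the others of its group by Dixon's criterion, which chance alone meets in about 1 in 20 groups. For PDK4 it was Creole TN replicate 1, at 10.25 log2 against 13.29 in the next lowest of the 6 pigs. Without this pig PDK4 in F1 minus Creole was -0.051, against 0.29 with it, and neither value was called. For ANGPTL4 it was F1 TN replicate 6, at 9.01 log2 against 10.94 in the next lowest. Both are among the 3 pigs with the lowest PDK4 relative to their group, and the correlation of PDK4 with ANGPTL4 was 0.834 without Creole TN replicate 1.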

How the results depend on the processing

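The breed difference of ANGPTL4 was called on 4 of 4 probes under all 10 alternative settings fitted to all arrays and without each of the 35 arrays, with the main probe between -1.82 and -1.44 on leaving out an array (highest limma adjusted p = 0.0235) and adjusted p from 0.00776 to 0.0204 over the other alternatives. It was not called on TN arrays alone (-1.87) or HS arrays alone (-1.41), which hold fewer pigs. The correlations of PDK4 with ANGPTL4 and UCP3 passed under all 7 alternatives (r from 0.837 to 0.901 and from 0.727 to 0.778) and without each array. PDK4 in HS minus TN lay between -2.01 and -1.85, and between -2.16 and -1.70 on leaving out an array. The member probes called lower in HS, 25 in all, were 14 with array brightness as a covariate, 5 when the leukocyte mean was the covariate, and 23 to 26 on leaving out an array. Those called higher were 2 with median scaling, slide as a block, array weights or the adipocyte mean, 0 with brightness or the leukocyte mean, and 0 to 2 on leaving out an array, other than 1 in 15 of 35 cases. UCP2 in HS minus TN moved to -0.10 with the leukocyte mean. The share of calls over all probes that were higher was 48.2%, and 37.5% with the 75th percentile scaling, 56.7% with median scaling, 63.6% with brightness and 57% with the leukocyte mean. The genes called lower in the fasting and PPAR list, 8 in all, were 4 with median scaling. Those of the malonyl-CoA and AMPK list, 2 in all, were 4 with the 75th percentile scaling, slide as a block or array weights, 1 with median scaling and 0 with brightness or the leukocyte mean. The same 2 covariates left 0 calls in the lists of nuclear receptors, lipoprotein lipase and glucose uptake and 1 in that of glucocorticoid targets. Small breed differences that were not called changed sign. Creole minus Large White of CPT1B was -0.017 with the 75th percentile scaling, -0.031 with median scaling, -0.00086 with normexp, -0.020 with brightness, -0.050 with the leukocyte mean and -0.052 to 0.094 on leaving out an array. F1 minus Large White was 0.082 with slide, 0.073 with brightness and -0.16 to 0.070 on leaving out an array for UCP2, -0.014, -0.013 and -0.017 to 0.24 for UCP3, and for CPT1B -0.015 with median scaling, -0.027 with brightness and -0.015 to 0.13 on leaving out an array. F1 minus Creole was 0.026 with the 75th percentile scaling and -0.064 to 0.032 on leaving out an array for PDK1. For PDK2 it was -0.019 with the 75th percentile scaling, -0.0010 with array weights, -0.022 with brightness and -0.038 to 0.033 on leaving out an array. It was -0.017 with the leukocyte mean for UCP2, -0.0078 with brightness and -0.036 to 0.11 on leaving out an array for CPT1B, and -0.051 to 0.60 on leaving out an array for PDK4. The correlation of PDK4 with CPT1B passed with median scaling (0.41), without centring (0.52) and with the leukocyte mean regressed out (0.42), and ran from 0.33 to 0.41 on leaving out an array. That with PDK2 was -0.011 with slide means removed, -0.038 with the leukocyte mean regressed out and -0.023 to 0.10 on leaving out an array, and that with UCP2 was 0.037 with slide means removed. The causes were not tested. No paired analysis was possible because the replicate numbers follow the order of deposition and tie no pig of 1 group to a pig of another.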
